A study of Arabidopsis thaliana with 8 samples.

Results

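The SUVH genes of Arabidopsis thaliana encode SET-domain proteins of the SU(VAR)3-9 class that also carry an SRA domain, through which they bind methylated cytosine. The 7 genes described here were chosen by locus: SUVH1 (AT5G04940), SUVH2 (AT2G33290), SUVH3 (AT1G73100), SUVH4 (AT5G13960), SUVH5 (AT2G35160), SUVH6 (AT2G22740) and SUVH9 (AT4G13460). They were 7 of the 28775 genes counted, and all 7 passed the filter on low counts, as did 22990 genes in all. Their transcripts were compared between wild-type Columbia (Col-0) plants and janus-2 plants in 4 mRNA libraries, 2 of each genotype, and 4 small RNA libraries of the same design gave the level of mature miR778, which targets SUVH5 and SUVH6. JANUS encodes the Arabidopsis homolog of the spliceosomal protein SF3B4. The janus-2 allele is hypomorphic and came from 1 CRISPR/Cas9 line with a small deletion in a JANUS exon, backcrossed to Col-0, and its plants are sterile. All plants were untreated and grown at 22 °C with 16 h of light and 8 h of dark. RNA came from inflorescences of an age that was not given. The labels call the mutant janus, and the allele number is taken from the study.

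The family falls into 3 kinds of protein. SUVH4, also known as KRYPTONITE, and its relatives SUVH5 and SUVH6 write H3K9 methylation at heterochromatin. The chromomethylases CMT3 and CMT2 bind that mark and methylate non-CG cytosines, which the SRA domains bind in turn, so that both marks maintain each other and keep transposons silent. SUVH2 and SUVH9 have no known methyltransferase activity and bring RNA polymerase V to methylated DNA in RNA-directed DNA methylation (RdDM). SUVH1 and SUVH3 also bind methylated DNA, but act with DnaJ-domain proteins to promote transcription of nearby genes.

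Depth was high and even. Between 56360882 and 65578130 counts fell on genes in each mRNA library, and between 1950664 and 2160372 on miRNAs in each small RNA library. JANUS itself had 3107 and 3579 counts in Col-0 against 1158 and 1141 in janus-2, which is 34.6% of the Col-0 level (log2 fold change -1.53, edgeR's quasi-likelihood test, adjusted p = 4.26e-214). Floral identity genes were present in every library, so the tissue fits its label. By the rule given below, 2 of these 6 were called lower, against 27.2% of all genes tested, and 4 were not called. The 2 were AP3, at 55.0% of the Col-0 level, and PI, at 36.3%. Transcripts that mark particular cell types also differed. All 14 pollen markers and all 13 tapetum markers were called lower in janus-2, against 27.2% of all genes tested. Summed pollen levels were 4097 and 4113 CPM (counts scaled to a common library size) in Col-0 against 20.5 and 22.1 in janus-2. Summed tapetum levels were 1039 and 1030 CPM against 132 and 128. The sperm-cell histone gene MGH3 had 0 counts in both janus-2 libraries. Of 7 genes of dividing cells, 6 were called lower. Of 7 ovule and carpel genes, 3 were called lower and 1 higher, the latter against 18.5% of all genes tested. In such bulk samples, fewer cells of a type and less RNA per cell cannot be told apart.

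SUVH4 was the only member called in janus-2, where its transcript was 1.66-fold lower. A gene was called when its adjusted p from edgeR was at most 0.05 and its fold change at least 1.5. SUVH2, SUVH3 and SUVH9 were higher by less than that fold, SUVH1 and SUVH5 differed by still less, and SUVH6 was level. Thus 1 of 7 members was called lower, against 27.2% of all genes tested, and 0 of 7 called higher, against 18.5%. DESeq2 likewise called 1 lower and 0 higher. With the adjusted p alone, 2 members were lower and 4 higher, against 42.5% and 40.6% of genes tested. Both janus-2 libraries lay above both Col-0 libraries for 4 members and below them for 2, arrangements that 44.2% and 46.6% of genes tested showed. With 7 members these shares were not far from the background, and the family did not stand out by how many of its members changed. The median log2 fold change was 0.11 over the 7 members and -0.019 over all genes tested.

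**Figure D1:**
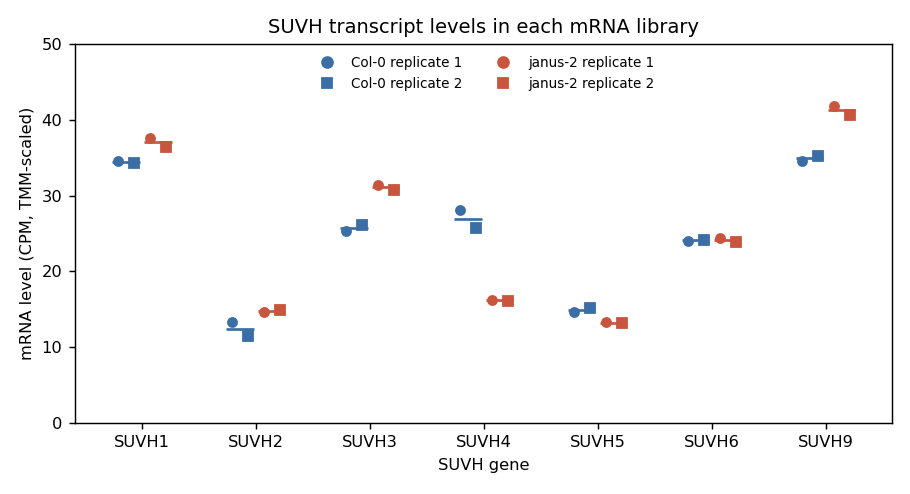
Level of each SUVH transcript in the 4 mRNA libraries, in CPM scaled by TMM; points are libraries and short lines the mean of the 2 libraries of a genotype. SUVH4 lay at 28.1 and 25.7 CPM in Col-0 compared with 16.3 and 16.1 CPM in janus-2, whereas SUVH6 stayed between 23.9 and 24.4 CPM in all 4; heights of different genes are not comparable, since CPM is not divided by gene length.

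Among the H3K9 methyltransferases, SUVH4 had 1591 and 1695 counts in the Col-0 libraries and 1028 and 945 in the janus-2 libraries. Scaled by TMM, these were 28.1 and 25.7 CPM against 16.3 and 16.1 CPM. The groups were well apart, and the 2 janus-2 libraries lay closer together than the 2 of Col-0. The mean fell from 26.9 ± 1.72 to 16.2 ± 0.118 CPM (SD, n = 2 each), or to 60.3% of the Col-0 level. The log2 fold change of -0.73 (SE 0.087) had an adjusted p of 5.36e-33 in edgeR's quasi-likelihood test and of 1.42e-16 in DESeq2. The 95% interval of the DESeq2 estimate ran from -0.90 to -0.56 and so reached just inside the fold of 1.5. A test of whether the change exceeded that fold, chosen after seeing the data, gave an adjusted p of 0.00525 (glmTreat of edgeR). A change this large in either direction was found in 39.3% of the genes tested, and 24.8% of the genes tested were as low or lower. Restricted to genes averaging over 10 CPM, as SUVH4 did, the share as low or lower was 12.9%. The p-values rest on the spread between 2 biological replicates, whose plants are not described further. That spread was small, with a common coefficient of variation of 2.26%, so very low p-values were reached by changes of a size common among all genes tested.

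SUVH5, which acts partly redundantly with SUVH4, had 824 and 996 counts in Col-0 against 841 and 771 in janus-2. Its levels of 14.6 and 15.1 CPM in Col-0 lay above the 13.3 and 13.1 CPM in janus-2. Its log2 fold change was -0.17 (SE 0.10), and the adjusted p was 0.0302 in edgeR but 0.135 in DESeq2, with an interval from -0.37 to 0.034. It was not called because its fold was under 1.5, and a reduction as large as that of SUVH4 lay outside its interval.

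SUVH6, the remaining enzyme of this group, had 1360 and 1595 counts in Col-0 against 1543 and 1402 in janus-2. At 24.0 and 24.2 CPM against 24.4 and 23.9 CPM, the genotypes overlapped. The log2 fold change was 0.0037 (SE 0.078, adjusted p = 0.953 in edgeR), with an interval from -0.15 to 0.16. A change by 1.5-fold in either direction lay outside it.

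The balance of these 3 transcripts shifted with SUVH4. For each SUVH5 count there were 1.93 and 1.70 SUVH4 counts in Col-0 but 1.22 and 1.23 in janus-2. Against SUVH6, the SUVH4 ratio was 1.17 and 1.06 in Col-0 against 0.666 and 0.674 in janus-2. In both ratios the genotypes were clearly apart. Because gene lengths cancel in the change of such a ratio but not in the ratio itself, only its change can be read.

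The RdDM members differed in the other direction. SUVH9, which with SUVH2 tethers RNA polymerase V, had 1957 and 2323 counts in Col-0 against 2645 and 2385 in janus-2. Both janus-2 libraries, at 41.9 and 40.6 CPM, exceeded the 34.6 and 35.2 CPM of Col-0. A log2 fold change of 0.24 (SE 0.063) had an adjusted p of 1.40e-07 in edgeR and an interval from 0.12 to 0.36, below the fold threshold.

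SUVH2 was the least even of the members between the Col-0 replicates, with 750 and 759 counts in Col-0 against 922 and 874 in janus-2. It stood at 13.3 and 11.5 CPM in Col-0 against 14.6 and 14.9 CPM in janus-2. The groups did not overlap, but the Col-0 libraries differed from each other more than the lower janus-2 library did from the higher Col-0 one. With all libraries, the log2 fold change was 0.26 (SE 0.11, adjusted p = 0.000889 in edgeR). Without Col-0 replicate 2 it was 0.15, with an adjusted p of 0.121.

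SUVH3, one of the transcription-promoting readers, was measured at 25.4 and 26.1 CPM in Col-0 compared with 31.4 and 30.8 CPM in janus-2, from 1435, 1725, 1986 and 1805 counts. The groups were apart by several times the distance between replicates. Its log2 fold change was 0.27 (SE 0.073, adjusted p = 3.12e-07 in edgeR), with an interval from 0.13 to 0.41. A change of this size was common, since 70.9% of genes tested changed as much or more.

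SUVH1, the other such reader, had 1955 and 2261 counts in Col-0 against 2378 and 2138 in janus-2. Its 34.5 and 34.3 CPM in Col-0 lay just under the 37.6 and 36.4 CPM in janus-2. The log2 fold change of 0.11 (SE 0.065) had an adjusted p of 0.0262 in edgeR and 0.135 in DESeq2, and the interval from -0.022 to 0.23 included no change. For each SUVH3 count there were 1.36 and 1.31 SUVH1 counts in Col-0 against 1.20 and 1.19 in janus-2, so the balance of the pair moved slightly towards SUVH3.

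**Figure D2:**
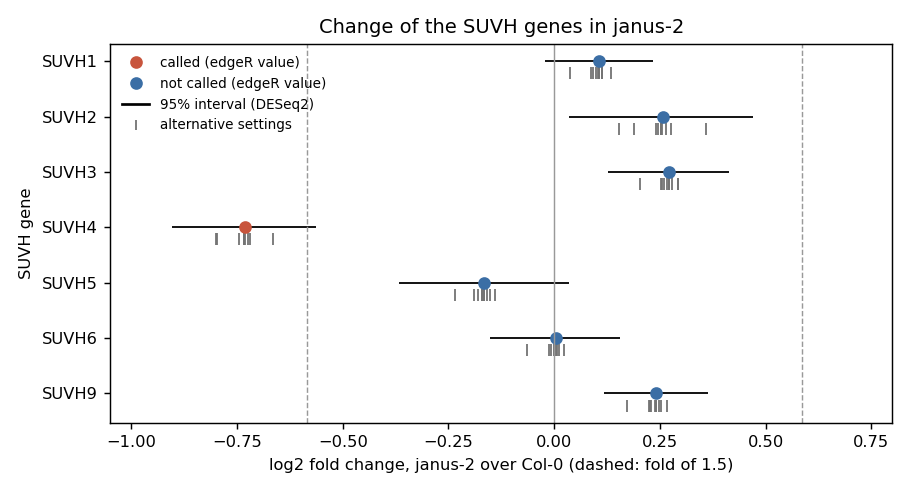
Log2 fold change of each SUVH transcript, janus-2 over Col-0; points are edgeR estimates, bars the 95% intervals of DESeq2, ticks the values under 10 alternative settings, and dashed lines a fold of 1.5. SUVH4, at -0.73, is the one member past a dashed line; SUVH2, SUVH3 and SUVH9 sit between 0.24 and 0.27.

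Summed over the 7 members, SUVH transcripts made up 174.4 and 172.0 CPM in Col-0 compared with 179.5 and 175.9 CPM in janus-2. The total thus differed little while its makeup changed. SUVH4 took 16.1% and 14.9% of the summed counts in Col-0 but 9.06% and 9.16% in janus-2. SUVH9 moved from 19.8% and 20.5% to 23.3% and 23.1%, and SUVH3 from 14.5% and 15.2% to 17.5% and 17.5%.

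Some members share sequence with another gene. In the RefSeq annotation of TAIR10.1, SUVH4 overlaps AT5G13970, SUVH3 overlaps AT1G73110 and SUVH6 overlaps AT2G22730, and whether the counting used strand is not given in the sources used here. Without strand, reads from the shared stretch cannot be told apart. AT5G13970 had 1253, 1419, 1913 and 1940 counts and a log2 fold change of 0.54, opposite to that of SUVH4. AT1G73110 had 827, 1015, 1694 and 1536 counts and was called higher, with a log2 fold change of 0.82 (adjusted p = 1.38e-39 in edgeR), the direction of SUVH3. The part of shared reads in the SUVH values was not tested.

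The other SUVH genes gave almost no counts. SUVH7 had 4 counts in Col-0 replicate 1 and 0 in each other library, SUVH10 had 1 count in each Col-0 library and 0 in both of janus-2, and SUVH8 had 0 in all 4. Depending on the library, 3 counts equal 0.0457 to 0.0532 CPM, and none of these genes was detectable above that level by this counting, apart from the 4 counts of SUVH7. They were too low to be tested.

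Genes related to the SUVH proteins were described from a list of 34, of which 31 could be tested. This pathway list held other SUVH and SUVR genes, partners, a target and opponents of the SUVH proteins, RdDM genes and silenced loci. It was chosen with earlier results of these data known, so its shares are descriptive only. In janus-2, 12 of the 31 were called lower and 2 higher, against 27.2% and 18.5% of all genes tested, and 17 were neither. With upper-quartile scaling, which lowered the median of all genes to -0.087, the split was 13 lower and 0 higher. The median log2 fold change of the 31 was -0.18.

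**Figure D3:**
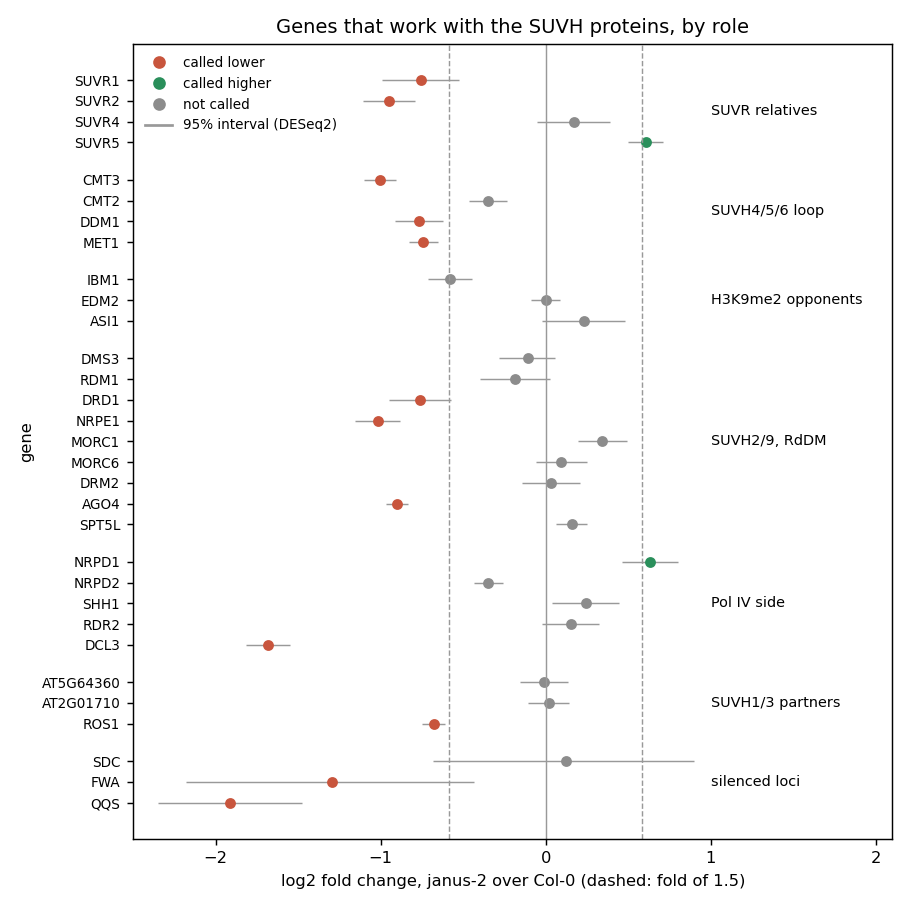
Log2 fold change, janus-2 over Col-0, of the 31 tested genes of the pathway list, in groups by role. Points are edgeR estimates, bars the 95% intervals of DESeq2 and dashed lines a fold of 1.5. The groups include SUVR relatives, opponents of H3K9 methylation and silenced loci as well as partners. Of the loop genes, CMT3, DDM1 and MET1 lie past the lower line, and DCL3, at -1.68, is the lowest gene outside the silenced loci.

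Of the 4 genes that work with SUVH4, SUVH5 and SUVH6 at heterochromatin, 3 were called lower, against 27.2% of all genes tested. CMT3, whose CHG methylation depends on H3K9 methylation, had 4972 and 5740 counts in Col-0 against 2703 and 2614 in janus-2, or 49.9% of its Col-0 level (SE of the log2 fold change 0.050, adjusted p = 4.66e-165 in edgeR). The chromatin remodeller DDM1, with 1947, 2380, 1318 and 1205 counts, fell by 0.77 on the log2 scale (SE 0.075, adjusted p = 2.10e-46). MET1, the CG maintenance methyltransferase, with 6081, 6916, 3951 and 3784 counts, fell by 0.74 (SE 0.044, adjusted p = 6.35e-114). All 3 had both janus-2 libraries below both Col-0 libraries, as did 46.6% of all genes tested. SUVH4 at 60.3% of its Col-0 level lay next to DDM1 at 58.7% and MET1 at 59.9%. CMT2, the chromomethylase for CHH sites, was at 78.6% and under the fold threshold (log2 fold change -0.35, adjusted p = 6.94e-17).

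The 3 genes listed as opponents of H3K9 methylation at genes did not share a direction. With the adjusted p alone, 1 was lower and 1 higher, against 42.5% and 40.6% of all genes tested, and the median log2 fold change of the 3 was -0.00016. The lower one, IBM1, a JmjC demethylase that removes H3K9 methylation from gene bodies and so works against SUVH4, had 2224 and 2603 counts in Col-0 against 1632 and 1575 in janus-2. Its log2 fold change of -0.58 (adjusted p = 4.89e-32 in edgeR) fell just short of the fold threshold. It passed that threshold under upper-quartile scaling, at -0.65, with table totals, at -0.60, and without janus-2 replicate 2, at -0.60.

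Genes of dividing cells were also lower in janus-2. The 7 markers (B-type cyclins and kinases, KNOLLE and AUR1) summed to 266.5 and 266.2 CPM in Col-0 compared with 152.4 and 153.0 CPM in janus-2. Their median log2 fold change was -0.76, and 6 of the 7 were called lower, against 27.2% of all genes tested. The part of any change in dividing cells in the SUVH4 result was not tested, nor was that of the lower pollen and tapetum transcripts.

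**Figure D4:**
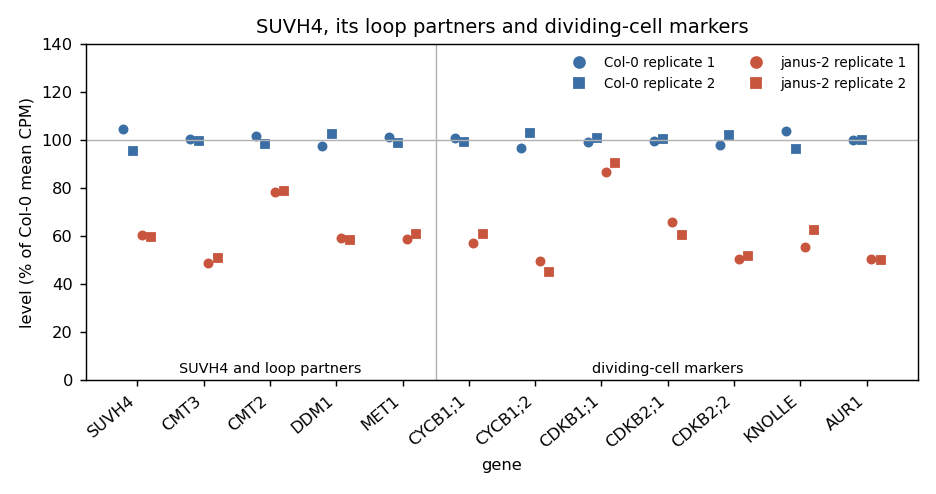
Level of SUVH4, its loop partners and 7 markers of dividing cells in each mRNA library, as a percentage of the mean Col-0 CPM of that gene. In janus-2, the dividing-cell markers range from 47.3% (CYCB1;2) to 88.4% (CDKB1;1). SUVH4 (60.3%), CMT3 (49.9%), CMT2 (78.6%), DDM1 (58.7%) and MET1 (59.9%) all lie within that range.

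Of the 9 RdDM genes listed with SUVH2 and SUVH9, 3 were called lower, close to the 27.2% of all genes tested. By the adjusted p alone, 4 were lower and 2 higher, against 42.5% and 40.6% of all genes tested. The largest subunit of RNA polymerase V, NRPE1, had 2576 and 2985 counts in Col-0 against 1470 and 1261 in janus-2, and its log2 fold change was -1.02 (SE 0.070, adjusted p = 8.31e-95 in edgeR). AGO4, which binds the siRNAs that guide methylation, fell by 0.90 (SE 0.034, adjusted p = 4.44e-245). Both effectors were thus at similar shares of their Col-0 level, 49.4% and 53.6%, while SUVH2 and SUVH9 were not lower.

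SUVH2 and SUVH9 recruit RNA polymerase V through the DDR complex, whose 3 subunits did not move together. The remodeller DRD1 had 1281 and 1605 counts in Col-0 against 926 and 766 in janus-2, and its log2 fold change was -0.76 (SE 0.096, adjusted p = 4.20e-31). DMS3, with 1333, 1417, 1326 and 1214 counts, was at -0.11 (adjusted p = 0.0796). RDM1, with 776, 903, 792 and 678 counts, was at -0.18 (adjusted p = 0.0208). Neither of the last 2 was called. MORC6, an ATPase that binds SUVH2 and SUVH9, was at 0.095 (adjusted p = 0.0999).

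Upstream, the 5 genes of the RNA polymerase IV side, which makes the siRNA precursors, went both ways. DCL3, the dicer of these siRNAs, had 3068 and 3706 counts in Col-0 against 1066 and 1032 in janus-2, or 31.2% of its Col-0 level (log2 fold change -1.68, SE 0.068, adjusted p = 4.28e-248 in edgeR). NRPD1, the largest subunit of RNA polymerase IV, had 878 and 1021 counts in Col-0 against 1525 and 1403 in janus-2 and was higher, at 0.63 (SE 0.087, adjusted p = 2.25e-23). The other 3 genes were not called.

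The DnaJ-domain partners of SUVH1 and SUVH3 were level between genotypes. AT5G64360 had 1496 and 1744 counts in Col-0 against 1659 and 1544 in janus-2 (log2 fold change -0.0079, interval -0.16 to 0.14, adjusted p = 0.896). AT2G01710 had 2273, 2528, 2476 and 2359 counts (log2 fold change 0.018, interval -0.11 to 0.14, adjusted p = 0.711). ROS1, the DNA demethylase gene whose transcription SUVH1 promotes, was lower although SUVH1 and SUVH3 were not: it had 9345 and 10834 counts in Col-0 against 6580 and 5952 in janus-2 (log2 fold change -0.68, SE 0.035, adjusted p = 5.96e-131 in edgeR).

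The SUVR relatives are SET-domain proteins without the SRA domain. Of these 4, 2 were called lower and 1 higher, against 27.2% and 18.5% of all genes tested. SUVR2, which acts in transcriptional silencing, fell by 0.95 (2046, 2458, 1277 and 1045 counts, adjusted p = 1.72e-68), and SUVR1 fell by 0.76 (803, 884, 501 and 492 counts, adjusted p = 6.57e-19). SUVR5, a zinc-finger member that acts in H3K9 methylation independently of DNA methylation, was higher, at 0.61 (2384, 2777, 4080 and 3736 counts, adjusted p = 5.09e-54). SUVR4 was not called. The 2 genes called higher in the whole list, SUVR5 and NRPD1, sat close to the fold threshold and were not called under upper-quartile scaling, at 0.54 and 0.56.

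The list also held 3 genes that DNA methylation can silence, and 2 were called lower in janus-2, against 27.2% of genes tested. All 3 had counts in Col-0, so they are no measure of loci that are fully silent there. SDC, an F-box gene silenced through promoter repeats, had 69 and 52 counts in Col-0 against 81 and 51 in janus-2, and the genotypes overlapped (log2 fold change 0.12, SE 0.40, adjusted p = 0.686). FWA, a homeobox gene expressed in endosperm, had 65, 81, 38 and 21 counts and was lower (log2 fold change -1.30, SE 0.44, adjusted p = 7.76e-05). QQS, whose transcription rises when its flanking repeats lose methylation, had 290, 371, 86 and 88 counts and was lower as well (log2 fold change -1.91, SE 0.22, adjusted p = 1.79e-31). DNA methylation and H3K9 methylation were not measured.

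miR778, the miRNA that targets SUVH5 and SUVH6, was much lower. Its single entry had 867 and 733 counts in the Col-0 small RNA libraries and 60 and 11 in those of janus-2, or 371 and 342 against 30.2 and 6.04 CPM. The genotypes were far apart, although the janus-2 libraries differed from each other by several times. The level averaged 356 ± 20.7 CPM for Col-0 but 18.1 ± 17.1 CPM for janus-2 (mean ± SD, n = 2 each), which is 19.4-fold lower (log2 fold change -4.28, SE 0.62, adjusted p = 0.000728 in edgeR). Of the 304 miRNA entries tested, 14.1% were called lower, at an adjusted p of at most 0.05. Without janus-2 replicate 1 the log2 fold change was -5.90, and without janus-2 replicate 2 it was -3.58. All 12 alternatives kept the call, with adjusted p between 1.10e-19 and 0.00430.

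The target transcripts did not mirror this difference. SUVH5 was at 89.2% of its Col-0 level and SUVH6 at 100.2%, and the upper ends of their 95% intervals were 0.034 and 0.16 on the log2 scale. A rise of either target by 1.5-fold therefore lay outside its interval. The precursor gene MIR778 (AT2G41616) had 0 counts in all 4 mRNA libraries, so its transcript was not detectable by this counting. Protein levels were not measured, and mRNA and small RNA came from separate libraries.

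**Figure D5:**
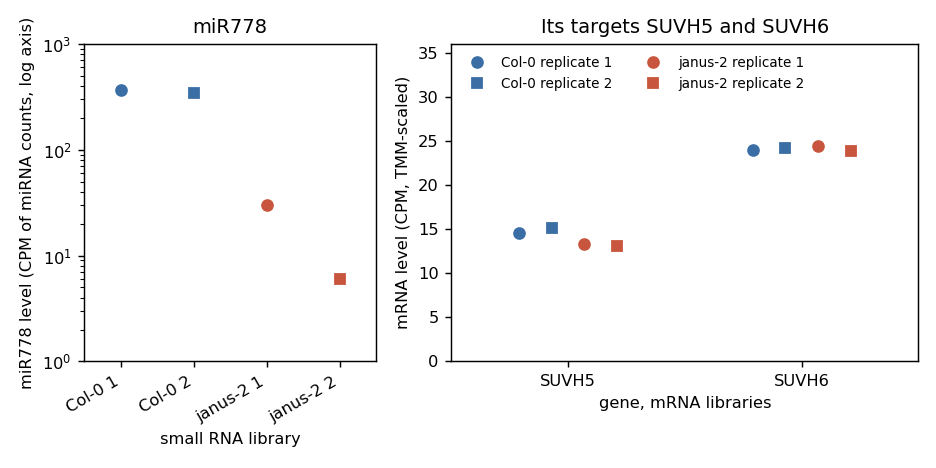
Level of mature miR778 in the small RNA libraries (left, CPM of miRNA counts, log axis) and of its targets SUVH5 and SUVH6 in the mRNA libraries (right, CPM scaled by TMM); each point is a library. miR778 drops from 371 and 342 to 30.2 and 6.04 CPM, while SUVH6 stays between 23.9 and 24.4 CPM and SUVH5 between 13.1 and 15.1 CPM.

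The genes whose pattern over the 4 mRNA libraries was most like that of SUVH4 were SKIP1 (AT5G57900), AtIPCS3 (AT2G29525) and AT4G01897. Likeness was the Euclidean distance between centred log2(CPM + 1) values, over the 14400 tested genes whose mean level reached 10 CPM. The distances were 0.0147, 0.0259 and 0.0282. SKIP1 had 1923 and 2080 counts in Col-0 against 1259 and 1154 in janus-2, so like SUVH4 it was highest in Col-0 replicate 1 once scaled. With only 4 libraries this describes the order of the points and nothing more.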

How the data were processed

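The authors deposited raw read counts, 1 per gene or per mature miRNA, for each library, and the submitters' processing notes name Bowtie, HTSeq and TAIR10. Versions, strand settings and multi-read handling are not given in the sources used here. Rows naming no gene were left out. Of aligned mRNA reads, 1.11% to 1.13% lay outside genes and 2.15% to 2.34% were ambiguous, and of aligned small RNA reads 96.4% to 97.1% matched no listed miRNA. The quasi-likelihood test of edgeR 4.0.16, after filterByExpr and TMM, was run in R 4.3.3 over all genes or miRNAs of an assay, with Benjamini-Hochberg adjustment. Standard errors and intervals (estimate ± 1.96 SE) came from DESeq2 1.42.0. Figures used matplotlib 3.10.9. Named were all members, JANUS, the other SUVH genes, miR778, direct partners and opponents of members and a gene they silence (CMT3, IBM1, DRD1, DMS3, RDM1, MORC6, both DnaJ-domain genes, ROS1 and SDC), called genes of the pathway list, and the 3 genes most like a called member. CMT2 and SUVR4 were named to complete their groups. Other genes are named where they overlap or adjoin a member or mark a cell type, some after their values were seen. Members and lists were chosen with earlier results of these data known. Names came from RefSeq (TAIR10.1), which matched 28009 genes; since its build differs, no coordinates, lengths or sequences are given. No batch or date is labelled. Alternatives changed the scaling, the filter, the tool or the fold threshold, added a replicate block or left out a library.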

Additional observations from a re-analysis of the deposited data

How the results depend on the processing

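SUVH4 was called lower in all 10 alternatives with the fold threshold unchanged, at -0.80 to -0.67 on the log2 scale (-0.80 to -0.67 also with a library left out), and at -0.73 with a replicate block. Same-numbered libraries did not deviate together (correlation of -0.0153 for mRNA and -0.152 for small RNA), so the numbers were not taken as pairs; the block changed no call of a member, and a crossed block for small RNA, chosen after seeing the data, gave 50 lower and 58 higher miRNAs against 43 and 55. With no fold threshold, 2 members were lower and 4 higher, and 8 genes of the pathway list were higher. With a fold of 2, 0 members and 5 pathway genes were lower and 0 pathway genes higher. Upper-quartile scaling and the test against a fold of 1.5, the latter chosen after seeing the data, left 0 pathway genes higher. SUVH3 and SUVH9 passed the adjusted p in 10 of 10 alternatives, SUVH2 in 9, SUVH5 in 6 (adjusted p up to 0.159) and SUVH1 in 4 (up to 0.438). Genes near no change switched sign: SUVH6 was at -0.00065 with DESeq2's size factors, -0.065 with upper quartiles, -0.012 with table totals and -0.0080 to 0.024 with a library left out; AT2G01710 was at -0.051 with upper quartiles and -0.018 to 0.052 with a library left out; SDC, at most 81 counts, was at -0.19 to 0.45. In the small RNA libraries, the median of all miRNAs moved from 0.11 to -0.23 when scaled by all aligned reads, and 83 rather than 43 were lower; miR778 stayed called, at -4.63. With 2 libraries a group and a common coefficient of variation of 25.5%, small RNA changes were measured far less precisely than mRNA changes (2.26%), and 11 counts of miR778 in janus-2 replicate 2 limit the size of its fold.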

Other observations

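Genes that adjoin SUVH loci in the RefSeq annotation were read after their values were seen, and no test of position was made. NAS1 (AT5G04950), a nicotianamine synthase gene next to SUVH1, had 4 and 3 counts in Col-0 against 357 and 339 in janus-2 (adjusted p = 1.08e-103 in edgeR), while SUVH1 itself was not called. Beside SUVH2, IAA13 (AT2G33310), an Aux/IAA repressor of auxin response, had 1912 and 2139 counts in Col-0 against 1253 and 1165 in janus-2 and was lower, with a log2 fold change of -0.74 (adjusted p = 1.39e-40). The nearest genes that do not overlap SUVH4 differed in opposite directions. AT5G13980 was lower, with a log2 fold change of -0.82 (adjusted p = 2.27e-195 in edgeR), and AT5G13950 stood at 0.24 and was not called. AT5G13970, which overlaps SUVH4, stood at 0.54 and was not called either.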
